A study of Mus musculus with 12 samples.

Results

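The response of wild-type (WT) mouse macrophages to 4 h of lipopolysaccharide (LPS) was read from RNA-seq of bone marrow-derived macrophages (BMDMs). Genes with at least 1 FPKM (fragments per kilobase of transcript, scaled for the size of the library) in at least 3 of the 6 WT libraries were compared, which were 10266 of the 23997 genes listed. The WT BMDMs came from male C57BL/6 mice aged 8 to 10 weeks and were grown with 10 ng/ml of recombinant human M-CSF for 7 d. Of the WT libraries, 3 were from untreated cells and 3 from cells given 100 ng/ml of LPS for 4 h. The series also holds BMDMs labelled Pim1-/-, on the C57BL/6 background, in the same 2 states with 3 libraries each, so that it has 12 libraries in all. Pim1 itself was not absent from the libraries labelled Pim1-/-, at 8.695, 8.003 and 9.51 FPKM untreated and 216, 205 and 236 FPKM after LPS, which is below every WT library of the same state but above 0. Values per gene do not show which exons the reads came from. These libraries entered the estimate of the spread but not the WT contrast. Nothing in the labels says whether replicates came from separate mice or cultures, so p-values measure the spread between these libraries, which may be technical.

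LPS is a cell wall component of Gram-negative bacteria that binds the receptor Tlr4 with the help of Cd14. Through the adaptor MyD88 the receptor activates NF-kB and AP-1, which drive cytokine and chemokine genes. Through the adaptor TRIF it activates the factor IRF3 and the gene of interferon beta, which is secreted and acts back on the cell through JAK-STAT signalling to drive interferon-stimulated genes (ISGs). Macrophages treated with LPS are also known for a shift of metabolism towards glycolysis and itaconate.

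The DNA letters that these factors recognise stood in the promoters of some of the genes that rose. Promoters from RefSeq (build GRCm38.p6) are printed below over the 250 bases before the start of the gene, read 5′ to 3′ on the strand of the gene, for the ISGs, the NF-kB family members and the cytokines with the largest fold change among those that held a motif. Capitals mark an ISRE core (GAAA and GAAA with 2 bases between them, bound by IRF and STAT complexes) in the first 2 promoters and a kB consensus (bound by NF-kB) in the last 2, found on either strand.
Rsad2, chr12:26456453-26456702, minus strand: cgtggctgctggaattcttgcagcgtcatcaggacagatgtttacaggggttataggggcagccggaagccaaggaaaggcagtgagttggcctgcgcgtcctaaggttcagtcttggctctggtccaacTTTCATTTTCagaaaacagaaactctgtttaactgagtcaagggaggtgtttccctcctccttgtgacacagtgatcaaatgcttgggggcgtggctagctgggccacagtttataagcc
Ifit1, chr19:34640639-34640888, plus strand: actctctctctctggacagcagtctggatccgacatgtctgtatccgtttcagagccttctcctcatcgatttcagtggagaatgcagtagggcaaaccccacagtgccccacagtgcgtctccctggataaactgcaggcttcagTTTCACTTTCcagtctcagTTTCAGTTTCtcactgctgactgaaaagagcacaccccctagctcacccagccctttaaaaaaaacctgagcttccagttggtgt
Nfkbia, chr12:55492648-55492897, minus strand: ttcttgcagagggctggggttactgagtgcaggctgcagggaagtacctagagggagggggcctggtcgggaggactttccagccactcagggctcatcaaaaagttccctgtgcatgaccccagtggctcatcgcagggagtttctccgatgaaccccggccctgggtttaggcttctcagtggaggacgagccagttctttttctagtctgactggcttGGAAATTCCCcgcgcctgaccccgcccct
Il6, chr5:30012864-30013113, plus strand: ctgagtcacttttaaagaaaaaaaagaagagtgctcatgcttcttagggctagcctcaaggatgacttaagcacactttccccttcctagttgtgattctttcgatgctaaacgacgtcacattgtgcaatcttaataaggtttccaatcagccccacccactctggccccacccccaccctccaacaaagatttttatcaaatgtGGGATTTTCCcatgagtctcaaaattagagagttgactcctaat
The Rsad2 core lay 120 to 111 bases before the start. Ifit1 held 2 cores, at 104 to 95 and at 85 to 76 bases before the start. The kB consensus lay 29 to 20 bases before the start in Nfkbia and 44 to 35 bases before it in Il6. A match describes these letters and does not show that a factor was bound.

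Replicates were close, with Pearson's r of 0.9965 to 0.9981 across genes on log2(FPKM + 1), and the median coefficient of variation was 3.42% in untreated and 3.02% in LPS libraries. Low values moved in steps of 1 fragment, from which 39500000 to 45700000 fragments were estimated per WT library. The same steps showed that FPKM had been divided by 37900000 to 44000000 fragments in untreated but by 21000000 to 23500000 in LPS libraries, and FPKM summed to 467484 to 489710 untreated against 837585 to 849323 after LPS. The deposited scale thus places the median gene at a log2 change of 0.03, while scaling all libraries to the same FPKM sum moves it to -0.68. Changes below are on the deposited scale, and directions that turn under another scaling are given with that scaling. Macrophage markers were present (Lyz2 at 25358 FPKM or more in every WT library), and of 61 markers of other cell types 49 were under 1 FPKM in all 6 WT libraries, with 17 of them, such as Cd3e, Cd8a and Pax5, at 0 in all 6. Of the 12 that reached 1 FPKM in a library, 6 passed the test upwards and 0 downwards. Of the other 6, Cd4 was at 5.33, 4.79 and 4.75 FPKM untreated and 2.302, 2.99 and 2.42 FPKM after LPS. Cd22, Cd79b (B cells) and Kit (mast cells) went from between 1.34 and 1.996 FPKM to between 0.472 and 0.885 FPKM, and Col1a2 and Dcn (stromal cells) were at 2.06 FPKM or less. In the list of T and NK cells those that passed were Lck and Klrk1, and the summed level of the list went from 4.98 to 5.57 FPKM to 19.3 to 20.3 FPKM, most of it Cd4 before and Lck after LPS. In neutrophils they were S100a8 and S100a9 (sums of 1.64 to 1.99 against 6.07 to 8.31 FPKM), in stromal cells Pdgfrb (3.39 to 3.93 against 11.7 to 11.9 FPKM) and in dendritic cells Bst2. S100a8 had a log2 fold change of 1.07 that was 0.94 without untreated replicate 3, 0.92 without LPS replicate 2 and 0.52 with equal FPKM sums. The part of such cells in the results was not tested. Lck, a T cell kinase, was at 0.169, 0.145 and 0.0967 FPKM in the untreated libraries and at 15.2, 14.6 and 15.9 FPKM after LPS, and Pdgfrb, a stromal receptor, was at 0.193, 0.123 and 0.174 FPKM in the untreated libraries and at 7.51, 6.76 and 7.02 FPKM after LPS. Bst2, the antiviral tetherin that is both a plasmacytoid marker and an ISG, was at 107, 109 and 107 FPKM in the untreated libraries and at 736, 703 and 725 FPKM after LPS.

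LPS changed a large share of the genes tested. With limma, 3682 genes moved more than 2-fold with a p under 0.05 and an FDR (Benjamini-Hochberg) under 0.1, which is 35.9% of those tested. Of these, 2127 (20.7%) were higher and 1555 (15.1%) were lower after LPS. Counts of each gene list below are to be read beside these shares. The split was 1654 higher and 1838 lower after quantile normalization, and 1192 higher and 3703 lower with libraries scaled to equal FPKM sums. The 3 LPS libraries lay entirely above or below the 3 untreated libraries for 9324 genes, or 90.8%, so a lack of overlap alone is common here. The rises were larger than the falls. More than 4-fold changes were seen in 954 genes upwards and 346 downwards, more than 16-fold in 246 and 17, and more than 64-fold in 78 and 0. More than 256-fold rises were seen in 26 genes.

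A set of 111 genes went from under 1 FPKM in all untreated libraries to at least 10 FPKM in all LPS libraries, and 29 genes went the other way. The filter let in 368 genes that were under 1 FPKM in every untreated library and 758 that were under it in every LPS library. At its edge, Man2c1os entered with a third-highest value of 1.003 FPKM and Diap3 with 1.003 FPKM, while BC018242 at 0.9998 FPKM and Mir17hg at 0.997 FPKM stayed out. Only 3 genes moved by more than 2-fold without passing the test (Mir703, Mir1957b and Snord22), each with a library at 0. In what follows, log2 fold changes are on log2(FPKM + 1), which understates the change of low genes, and are given ± SE of the fit with 3 libraries a group. The 160 named genes that rose or fell passed the limma test with adjusted p of 5.9e-05 or less, a median SE of 0.06 and no overlap between groups. Since these are bulk libraries, a change in RNA per cell and a change in the make-up of the cells cannot be told apart.

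**Figure D1:**
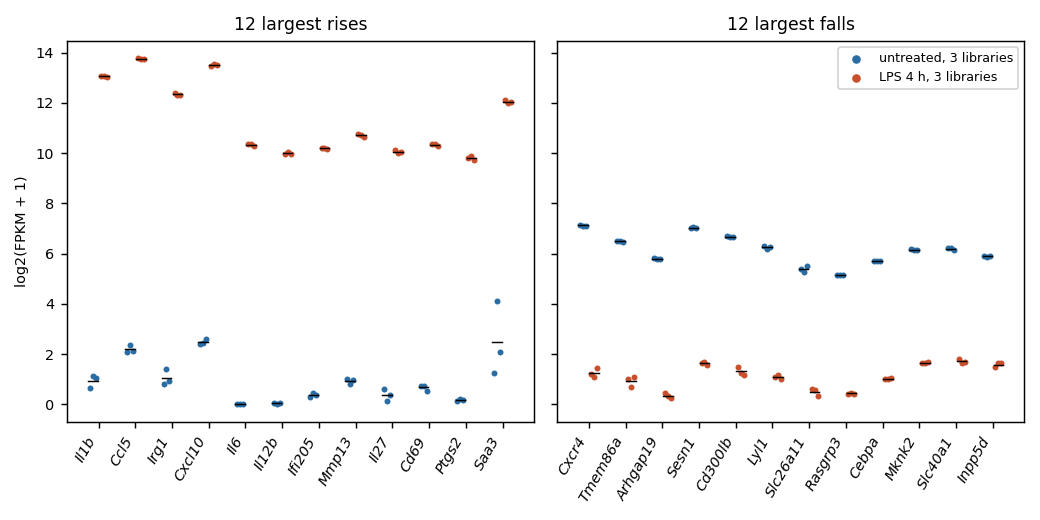
Level of the 12 genes with the largest rise and the 12 with the largest fall after LPS in WT BMDMs, on log2(FPKM + 1), with 1 point per library (3 untreated in blue, 3 LPS in red) and black lines for group means. Saa3 is the only one of these genes whose untreated libraries spread widely, from 1.41 to 16.3 FPKM, and all 12 falling genes end at 2.53 FPKM or less.

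Among the rises the largest on log2(FPKM + 1) was that of Il1b (chr2:129364570-129371139 in GENCODE M21 on GRCm38, minus strand), which encodes the fever-inducing cytokine IL-1 beta. Il1b was at 0.584, 1.204 and 1.08 FPKM in the untreated libraries and at 8636, 8539.7 and 8369.5 FPKM after LPS, a log2 fold change of 12.10 ± 0.09. It went from rank 9881 to rank 9 among the genes tested by mean FPKM. Ccl5, a chemokine for T cells and monocytes, was at 3.22, 4.16 and 3.402 FPKM in the untreated libraries and at 14087, 13569 and 13629 FPKM after LPS (11.55 ± 0.06). Irg1, the older name of Acod1, encodes the enzyme that makes itaconate and was at 0.773, 1.695 and 0.902 FPKM in the untreated libraries and at 5332, 5151 and 5123 FPKM after LPS (11.28 ± 0.12). Saa3, an acute phase protein, was at 1.41, 16.3 and 3.201 FPKM in the untreated libraries and at 4409, 4052 and 4201 FPKM after LPS, and its 3 untreated libraries differed by more than 10-fold, which gave the largest SE of any gene described (9.56 ± 0.45).

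Of the falls the largest on log2(FPKM + 1) was that of Cxcr4 (chr1:128588199-128592293, minus strand), the receptor for the bone marrow chemokine Cxcl12. Cxcr4 was at 140.1, 138 and 138 FPKM in the untreated libraries and at 1.32, 1.13 and 1.73 FPKM after LPS (-5.87 ± 0.09). Tmem86a, a lysoplasmalogenase, was at 90.5, 90.7 and 87.3 FPKM in the untreated libraries and at 1.02, 0.615 and 1.16 FPKM after LPS (-5.56 ± 0.09). Arhgap19, a GTPase-activating protein, was at 55.2, 53.5 and 54.6 FPKM in the untreated libraries and at 0.355, 0.271 and 0.193 FPKM after LPS (-5.45 ± 0.05). Sesn1, a p53 and FOXO target that restrains mTORC1, was at 128, 131 and 128 FPKM in the untreated libraries and at 2.17, 2.21 and 1.93 FPKM after LPS (-5.39 ± 0.05). In all 4 genes every LPS library was far below every untreated one. Further falls of more than 16-fold on that scale included those of Cd300lb, an activating myeloid receptor (-5.35), Lyl1, a haematopoietic bHLH factor (-5.16), Slc26a11, an anion transporter (-4.89), and Rasgrp3, a Ras activator (-4.70). They also included Mknk2, a kinase of the translation factor eIF4E (-4.51), and Inpp5d, which encodes the inositol phosphatase SHIP1 (-4.31).

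**Figure D2:**
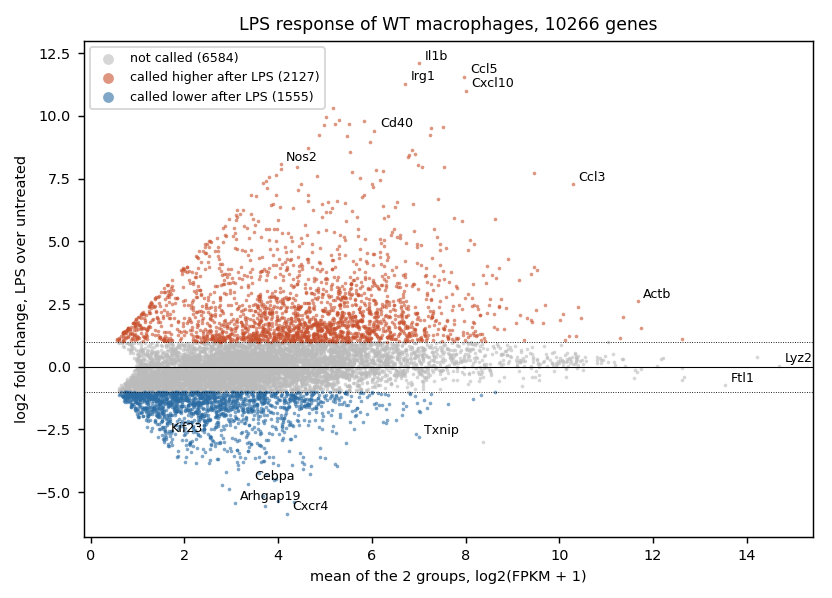
Log2 fold change of LPS over untreated for 10266 genes in WT BMDMs against the mean level of both groups on log2(FPKM + 1), with 1 point per gene. Genes called higher (2127, red) reach 12.10 for Il1b and genes called lower (1555, blue) reach -5.87 for Cxcr4, while the most abundant genes at the right, such as Lyz2 and Ftl1, stay within 2-fold (dotted lines).

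The rises also reshaped what was abundant. There were 69 genes whose mean reached 1000 FPKM untreated and 146 after LPS, and 69 of the latter had risen. None of the 69 that were abundant without treatment fell past the threshold. The 6 largest gains in mean FPKM were those of Ccl3, Ccl5, Cxcl10, Ccl4, Il1b and Actb. Ccl3, a chemokine for monocytes and neutrophils, went from 99.6 to 15504 FPKM, and Ccl4, its close relative, from 47.2 to 10169 FPKM. The 6 genes whose mean FPKM was lower by the largest amounts did not pass 2-fold on the deposited scale. They were Ftl1 (ferritin light chain, -0.74), Psap (the precursor of the saposins, -0.52), the cathepsins Ctsd (-0.39) and Ctsb (-0.20), Sepp1 (selenoprotein P, -0.45) and Fabp5 (a fatty acid binding protein, -0.42). With libraries scaled to equal FPKM sums all 6 passed downwards, and under quantile normalization all but Ctsb did. Lyz2, the lysozyme gene and the most abundant in both states, was at 26054, 27492 and 25358 FPKM in the untreated libraries and at 26872, 27016 and 26467 FPKM after LPS, a log2 difference of 0.03 that became -0.79 with equal FPKM sums.

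Proinflammatory cytokine genes rose together. Of 35 listed, 26 were tested, 20 rose and 1 fell, with a median log2 fold change of 5.17 against 0.03 over all genes. Their share of all FPKM went from 0.0632 to 0.0664% untreated to 2.27 to 2.30% after LPS. Il6 (chr5:30013114-30019981, plus strand), a cytokine of the acute phase response, was at 0, 0 and 0.0254 FPKM in the untreated libraries and at 1300.1, 1301 and 1233 FPKM after LPS. Il12b, a subunit shared by IL-12 and IL-23, was at 0.0301, 0.0141 and 0.0388 FPKM in the untreated libraries and at 1005, 1046 and 988 FPKM after LPS. Both went from a trace or nothing to around 1000 FPKM or more in every LPS library. Il27, a cytokine that steers T cells, was at 0.518, 0.0975 and 0.309 FPKM in the untreated libraries and at 1104, 1026 and 1063 FPKM after LPS (9.68 ± 0.09). Tnf, which encodes tumour necrosis factor, was at 4.93, 4.98 and 5.35 FPKM in the untreated libraries and at 3846, 3641 and 3715 FPKM after LPS (9.26 ± 0.05). The 1 member that fell was Vegfa, the angiogenic growth factor, which was at 17.7, 17.05 and 19.9 FPKM in the untreated libraries and at 2.63, 2.55 and 2.84 FPKM after LPS (-2.39 ± 0.06).

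Chemokine genes had the highest median of the 38 lists plotted here, which leave out the genes that the study itself chose. Of 25 listed, 22 were tested, 20 rose and 0 fell, and the median was 7.06. They took 0.0860 to 0.0878% of all FPKM untreated and 6.96 to 7.12% after LPS. Cxcl10, which attracts T cells through CXCR3 and is both an ISG and an NF-kB target, was at 4.35, 4.47 and 5.103 FPKM in the untreated libraries and at 11379, 11949 and 11564 FPKM after LPS (11.01 ± 0.05). Cxcl2, which attracts neutrophils, was at 0.714, 1.09 and 0.637 FPKM in the untreated libraries and at 1117, 1032 and 1060.3 FPKM after LPS (9.21 ± 0.07). Ccl3 and Ccl4 differed from these in that they were already expressed without treatment, at 103, 98.9 and 96.7 FPKM and 47.6, 48.8 and 45.3 FPKM.

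Receptors for chemoattractants moved both ways. Of 21 listed, 14 were tested, 5 rose and 4 fell, and the median was -0.24, or 0.37 when only genes with 5 FPKM were kept. The counts became 3 and 5 after quantile normalization, and 3 and 6 with equal FPKM sums. The 4 that fell bind chemokines or an oxysterol. Beside Cxcr4, these were Cx3cr1, the fractalkine receptor of patrolling monocytes, at 11.5, 10.9 and 11.9 FPKM in the untreated libraries and at 1.03, 0.741 and 0.899 FPKM after LPS, Ccr2, the receptor by which monocytes leave the marrow (-2.46 ± 0.07), and Gpr183, a receptor for oxysterols (-2.23 ± 0.07). The 5 that rose included receptors for bacterial peptides and for a complement fragment. Fpr2, a formyl peptide receptor, was at 0.04802, 0.2700 and 0.123 FPKM in the untreated libraries and at 166, 158 and 147 FPKM after LPS (7.11 ± 0.07). Ccrl2, a receptor that presents chemerin, rose by 5.98 ± 0.04 on the log2 scale, and C5ar1, the receptor for the complement fragment C5a, by 1.74 ± 0.05. The C5ar1 change was under 2-fold after quantile normalization (0.75) and with equal FPKM sums (0.94).

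Genes of the TLR4 pathway itself moved both ways, and the receptor fell. Of 27 listed and tested, 14 rose and 3 fell (20.7% and 15.1% of all genes), with a median of 1.12. The counts became 10 and 3 after quantile normalization, and 9 and 4 with equal FPKM sums, where the median was 0.36. Tlr4 was at 20.6, 22.8 and 20.5 FPKM in the untreated libraries and at 9.497, 10.2 and 9.17 FPKM after LPS, a fall in every LPS library (-1.07 ± 0.08). Cd14, the co-receptor that hands LPS to it, was at 171, 168 and 164 FPKM in the untreated libraries and at 1916, 1802 and 1864 FPKM after LPS (3.47 ± 0.05). The kinases on the pathway went separate ways. Irak2, which prolongs NF-kB signalling, rose by 3.26 ± 0.04, whereas Irak4, the kinase that starts MyD88 signalling, fell to 7.14, 6.32 and 6.64 FPKM from 14.3, 14.8 and 14.7 FPKM (-1.02 ± 0.05), with a change of -0.98 without LPS replicate 2. Ikbke, a kinase related to TBK1, rose by 3.17 ± 0.05. Tab1, an adaptor of the kinase TAK1, was at 9.700, 9.52 and 10.3 FPKM in the untreated libraries and at 3.69, 3.05 and 3.19 FPKM after LPS and fell (-1.33 ± 0.07).

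Sensors of other microbial products rose in greater number. Of 24 listed, 23 were tested, 16 rose and 2 fell, with a median of 2.96. Ifi205, of the Ifi200 family of DNA-binding proteins, was at 0.242, 0.367 and 0.304 FPKM in the untreated libraries and at 1189, 1192 and 1151 FPKM after LPS (9.82 ± 0.06). Zbp1, a sensor of Z-form nucleic acids, was at 2.45, 3.78 and 2.999 FPKM in the untreated libraries and at 309, 282 and 279 FPKM after LPS (6.17 ± 0.08). The 2 that fell were a receptor and an adaptor. Tlr13, the sensor of bacterial ribosomal RNA, was at 69.5, 73.9 and 68.2 FPKM in the untreated libraries and at 11.8, 12.5 and 11.6 FPKM after LPS (-2.47 ± 0.06), and Mavs, the mitochondrial adaptor of RNA sensing, was at 17.4, 17.9 and 18.95 FPKM in the untreated libraries and at 4.92, 4.52 and 5.26 FPKM after LPS (-1.70 ± 0.06).

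All 11 genes of NF-kB subunits and IkB proteins rose, with a median of 3.44. The count was 10 after quantile normalization and 9 with equal FPKM sums. Nfkbia (chr12:55489410-55492647, minus strand), the inhibitor IkB alpha that is itself an NF-kB target, was at 45.2, 48.04 and 46.6 FPKM in the untreated libraries and at 1609, 1526 and 1583 FPKM after LPS (5.05 ± 0.04). Nfkbiz, the nuclear IkB protein needed for Il6 expression, was at 4.04, 4.85 and 4.74 FPKM in the untreated libraries and at 419, 412 and 398 FPKM after LPS (6.22 ± 0.06). Nfkbie, another inhibitor, rose by 4.68 ± 0.05, and Nfkb2, the precursor of the p52 subunit, by 4.51 ± 0.05. Of the 4 largest rises of this family, 3 were in IkB proteins.

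Negative regulators of TLR signalling moved in both directions. Of 36 listed, 35 were tested, 22 rose and 8 fell, with a median of 2.40. Socs3, a suppressor of cytokine receptors, was at 3.25, 4.96 and 3.99 FPKM in the untreated libraries and at 1164, 1076 and 1116 FPKM after LPS (7.80 ± 0.09). Usp18, which removes ISG15 and blocks the interferon receptor, was at 3.02, 2.62 and 3.17 FPKM in the untreated libraries and at 739.7, 729.9 and 721 FPKM after LPS (7.54 ± 0.07). Tnfaip3, the ubiquitin-editing enzyme A20, was at 4.05, 4.28 and 4.58 FPKM in the untreated libraries and at 619.8, 618 and 604 FPKM after LPS (6.86 ± 0.05). Those that fell include 2 RNA-binding proteins that promote mRNA decay. Zfp36l1 was at 44.1, 45.5 and 47.4 FPKM in the untreated libraries and at 2.73, 2.24 and 2.48 FPKM after LPS (-3.75 ± 0.07), and Zfp36l2 was at 103, 99.2 and 104 FPKM in the untreated libraries and at 7.32, 7.34 and 7.62 FPKM after LPS (-3.62 ± 0.04). Dusp6, a phosphatase of ERK, also fell (-2.20 ± 0.06).

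Factors of the immediate early class were mostly higher at 4 h. Of 27 listed, 23 were tested, 14 rose and 3 fell, with a median of 2.13. Junb, an AP-1 subunit, was at 44.6, 44.00 and 46.1 FPKM in the untreated libraries and at 585, 528 and 575 FPKM after LPS (3.62 ± 0.05). The 3 that fell were Klf10, a factor of TGF-beta signalling (10.2, 10.3 and 9.76 to 0.808, 0.999 and 0.6999 FPKM), Nr4a1, a nuclear receptor (-1.07), and Egr1, a zinc finger factor of growth signals (-1.04). The Nr4a1 and Egr1 falls were under 2-fold after quantile normalization (-0.77 and -0.72), and that of Egr1 also without LPS replicate 2 (-0.98).

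Interferon signalling genes rose. Of 26 genes of interferons, their receptors and JAK-STAT, 25 were tested, 19 rose and 1 fell, with a median of 1.58. The counts were 13 and 4 after quantile normalization, and 9 and 3 with equal FPKM sums. Ifnb1, the gene of interferon beta, was listed at 0 in all untreated libraries and was at 9.52, 7.801 and 8.17 FPKM after LPS. Irf7, the factor that amplifies interferon genes, was at 8.58, 9.26 and 8.65 FPKM in the untreated libraries and at 840.2, 792 and 821 FPKM after LPS (6.38 ± 0.08). Jak2, a kinase of cytokine receptors, was at 7.33, 7.72 and 7.38 FPKM in the untreated libraries and at 313, 326 and 309 FPKM after LPS (5.22 ± 0.04). Irf1, a transcription factor induced by interferon, rose by 4.64 ± 0.04.

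Every antiviral ISG that was tested rose. Of 62 listed, 61 were tested and 61 rose, with a median of 4.37, and the count was 60 under both quantile normalization and equal FPKM sums. Their share of all FPKM went from 0.292 to 0.305% to 3.70 to 3.80%. Rsad2 (chr12:26442746-26456452, minus strand), the antiviral enzyme viperin whose promoter is printed above, was at 4.37, 4.74 and 5.02 FPKM in the untreated libraries and at 4046, 4307 and 4127 FPKM after LPS (9.51 ± 0.05). Ifit1 (chr19:34640871-34650009, plus strand), which binds viral RNA ends and holds 2 ISRE cores, was at 4.87, 5.86 and 5.43 FPKM in the untreated libraries and at 2252, 2339.5 and 2287 FPKM after LPS (8.49 ± 0.07). Isg15, a ubiquitin-like modifier, was at 9.61, 11.2 and 11.4 FPKM in the untreated libraries and at 2953, 2862 and 2985 FPKM after LPS (7.97 ± 0.09). Mx1, a gene of the dynamin-like GTPase family, was at 1.34, 1.33 and 1.56 FPKM in the untreated libraries and at 905, 903 and 882 FPKM after LPS (8.54 ± 0.04). In these 4 genes the LPS libraries lay within a narrow band, far above the untreated ones.

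Guanylate-binding proteins and immunity-related GTPases, which attack the vacuoles of intracellular microbes, followed the ISGs. Of 20 listed, 17 were tested, 16 rose and 0 fell, with a median of 5.15. Gbp5, which assists the inflammasome, was at 1.74, 1.73 and 1.91 FPKM in the untreated libraries and at 1371, 1446 and 1372 FPKM after LPS (8.97 ± 0.04). Gbp2 was at 6.79, 8.11 and 7.600 FPKM in the untreated libraries and at 2113, 2147 and 2117 FPKM after LPS (7.97 ± 0.05), and Iigp1 was at 0.337, 0.532 and 0.464 FPKM in the untreated libraries and at 163, 172 and 162 FPKM after LPS (6.85 ± 0.06). The Gbp genes are close copies of each other, and how the counting split reads between copies is not given in the sources used here.

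Presentation by MHC class I rose widely. Of 25 genes of class I, peptide loading and the immunoproteasome, 24 were tested, 20 rose and 0 fell, with a median of 2.59. Nlrc5, the factor that drives class I genes, was at 2.35, 2.17 and 2.61 FPKM in the untreated libraries and at 93.3, 92.4 and 89.5 FPKM after LPS (4.78 ± 0.06). Tap1, which pumps peptides into the endoplasmic reticulum, was at 13.7, 13.3 and 13.8 FPKM in the untreated libraries and at 358, 342 and 354 FPKM after LPS (4.59 ± 0.05). B2m, the light chain of class I, was at 2004, 2064 and 1935 FPKM in the untreated libraries and at 5873, 5907 and 5809.8 FPKM after LPS (1.55 ± 0.05), which was under 2-fold after quantile normalization (0.67) and with equal FPKM sums (0.74). Of 12 MHC class II genes listed, 9 were tested and 2 rose, beside 20.7% of all genes tested. Their median of 0.44, against 0.03 over all genes, became -0.39 after quantile normalization and -0.35 with equal FPKM sums. The 2 were H2-Ab1, a class II chain (1.13 ± 0.07), and Cd74, the invariant chain (1.03 ± 0.07). H2-Ab1 was 0.09 after quantile normalization and 0.32 with equal FPKM sums. For Cd74 these were -0.31, the opposite direction, and 0.22, and without untreated replicate 2 it was 0.99.

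Costimulatory and adhesion genes rose in 16 of 20 tested, out of 22 listed, and 2 fell, with a median of 3.60. Cd69, an early activation marker that retains leukocytes in tissue, was at 0.686, 0.6603 and 0.462 FPKM in the untreated libraries and at 1306, 1323 and 1260.4 FPKM after LPS (9.66 ± 0.06). Cd40, the receptor for T cell help, was at 1.28, 1.65 and 1.71 FPKM in the untreated libraries and at 1718, 1749.9 and 1714 FPKM after LPS (9.41 ± 0.06). Icam1, the ligand of leukocyte integrins, was at 30.3, 32.4 and 31.6 FPKM in the untreated libraries and at 1828, 1818 and 1858 FPKM after LPS (5.82 ± 0.05). One of the 2 that fell was 4632428N05Rik, the older name of the checkpoint ligand Vsir, which was at 125, 124 and 127 FPKM in the untreated libraries and at 42.7, 42.3 and 42.9 FPKM after LPS (-1.53 ± 0.04).

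**Figure D3:**
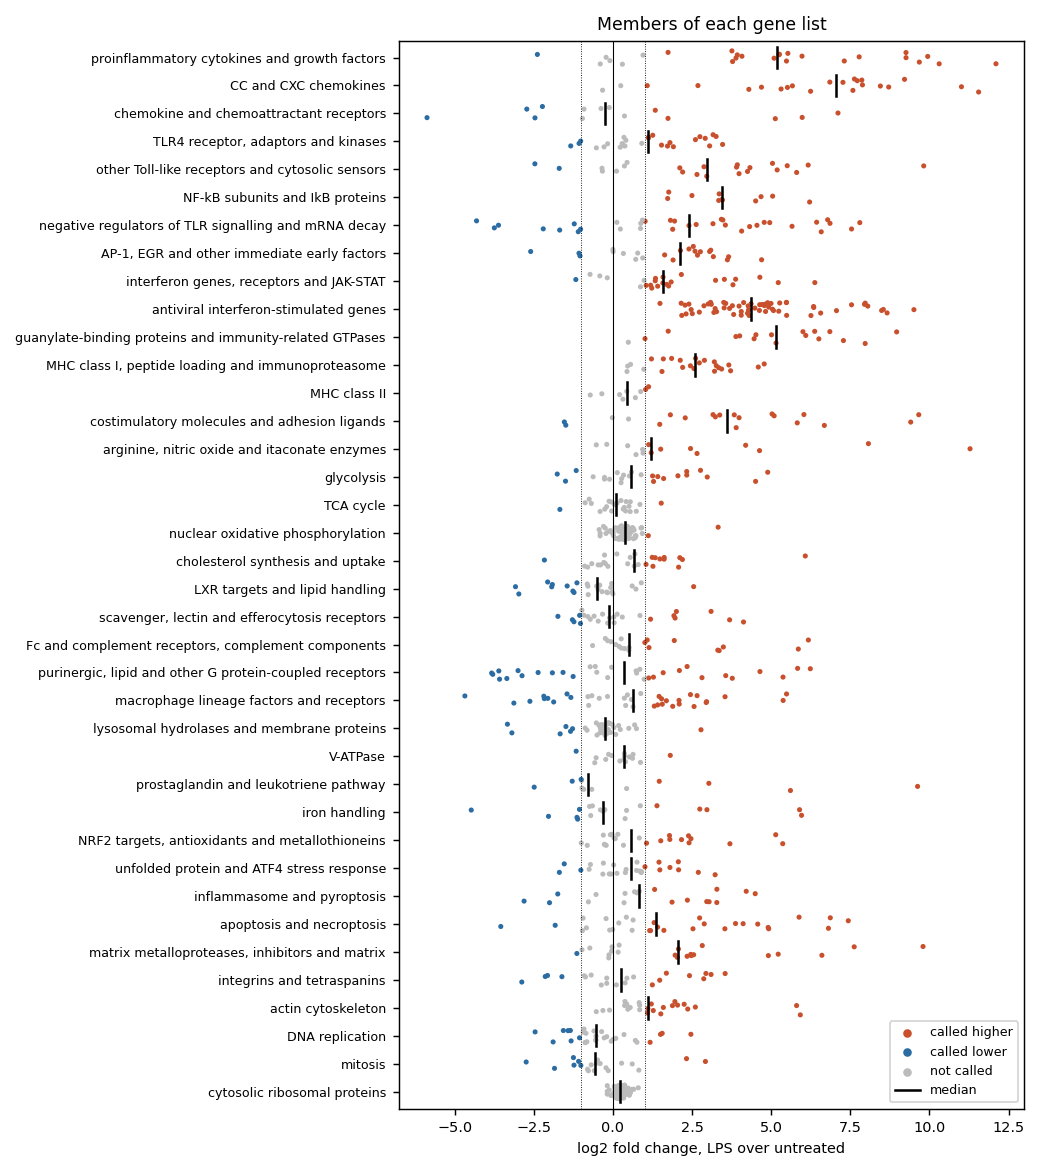
Log2 fold change of LPS over untreated for the members of 38 gene lists in WT BMDMs, with 1 point per gene tested, coloured by the limma call, and black bars for medians. Cytokines, chemokines, ISGs and guanylate-binding proteins lie mostly to the right of the 2-fold line (dotted), chemoattractant and other G protein-coupled receptors spread to both sides, and oxidative phosphorylation and ribosomal protein genes cluster near 0.

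Enzymes of arginine, nitric oxide and itaconate rose in 9 of 15 tested, out of 17 listed, and 0 fell, with a median of 1.21. The equal-sum scaling left 6 rising and 1 falling. Nos2, inducible nitric oxide synthase, was at 0, 0.0261 and 0.01198 FPKM in the untreated libraries and at 269, 270.1 and 276 FPKM after LPS. Its cofactor and its substrate depend on 2 other members. Gch1, the first enzyme of tetrahydrobiopterin synthesis, was at 4.55, 4.77 and 5.02 FPKM in the untreated libraries and at 107, 102 and 106 FPKM after LPS (4.19 ± 0.05), and Slc7a2, an arginine transporter, was at 0.907, 0.956 and 1.06 FPKM in the untreated libraries and at 46.1, 49.8 and 47.9 FPKM after LPS (4.63 ± 0.06).

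Glycolysis genes moved in both directions, as did the genes tested as a whole. All 25 listed were tested, and 11 rose and 3 fell (20.7% and 15.1% of all genes). The median of 0.59 became -0.15 after quantile normalization and -0.22 with equal FPKM sums. The counts became 7 and 5 under both. Members of the same gene family went opposite ways. Among sugar transporters, Slc2a6 was at 32.1, 31.8 and 29.8 FPKM in the untreated libraries and at 978, 911 and 978 FPKM after LPS (4.89 ± 0.05), while Slc2a3 was at 4.17, 3.902 and 4.17 FPKM in the untreated libraries and at 0.523, 0.594 and 0.393 FPKM after LPS (-1.76 ± 0.06). Of the enzymes that make the activator fructose 2,6-bisphosphate, Pfkfb3 was at 6.86, 7.31 and 7.43 FPKM in the untreated libraries and at 189, 184 and 184 FPKM after LPS (4.51 ± 0.05) and Pfkfb4 was at 13.5, 12.9 and 13.1 FPKM in the untreated libraries and at 3.83, 4.12 and 4.12 FPKM after LPS (-1.50 ± 0.06). The muscle-type phosphofructokinase Pfkm also fell (-1.16 ± 0.07).

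Mitochondrial genes stayed within 2-fold for the most part. Of 24 TCA cycle genes tested, out of 25 listed, 1 rose and 1 fell, and the median of 0.09 became -0.64 after quantile normalization and -0.70 with equal FPKM sums, with 0 rising and 7 falling under both. The fall was that of Idh1, a list member that encodes the cytosolic isocitrate dehydrogenase and not a mitochondrial one. Idh1 was at 142, 146 and 132 FPKM in the untreated libraries and at 44.7, 43.4 and 41.3 FPKM after LPS (-1.67 ± 0.06). Of 60 nuclear oxidative phosphorylation genes, 2 rose and 0 fell, and the median of 0.37 became -0.65 with 12 falling after quantile normalization and -0.43 with 6 falling with equal FPKM sums. Cycs, cytochrome c, stood apart from the other 59 and was at 12.5, 12.9 and 12.4 FPKM in the untreated libraries and at 135, 137 and 134 FPKM after LPS (3.32 ± 0.07). Ndufs4, a complex I subunit, was 1.12 higher and was under 2-fold after quantile normalization (0.59) and with equal FPKM sums (0.34).

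Cholesterol synthesis and uptake genes rose in 11 of 27, all tested, and 1 fell, with a median of 0.68 that became -0.12 with equal FPKM sums, where 4 rose and 8 fell. Ch25h, which makes the antiviral oxysterol 25-hydroxycholesterol, was at 0.274, 0.236 and 0.392 FPKM in the untreated libraries and at 93.8, 81.9 and 85.01 FPKM after LPS (6.08 ± 0.07). Dhcr7, the last enzyme of cholesterol synthesis, fell to 1.65, 1.55 and 1.33 FPKM from 10.2, 10.7 and 9.81 FPKM (-2.16 ± 0.07). The genes of LXR and lipid handling went down instead. Of 29 listed, 26 were tested, 1 rose and 9 fell, with a median of -0.49, and 17 fell with equal FPKM sums. Rxra, the partner of LXR and PPAR receptors, was at 16.02, 16.2 and 16.7 FPKM in the untreated libraries and at 1.06, 1.14 and 0.957 FPKM after LPS (-3.08 ± 0.05). Pparg, a lipid-sensing receptor of alternative activation, was at 23.1, 23.9 and 22.6 FPKM in the untreated libraries and at 2.39, 2.09 and 1.804 FPKM after LPS (-2.97 ± 0.07). Soat1, which esterifies cholesterol, fell to 16.5, 17.4 and 16.6 FPKM from 67.2, 65.9 and 68.01 FPKM. Acsl1, which activates fatty acids, was the 1 that rose (2.55 ± 0.05).

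Scavenger, lectin and efferocytosis receptors moved both ways, as did the genes tested as a whole. Of 32 listed, 26 were tested, 7 rose and 5 fell (20.7% and 15.1% of all genes), with a median of -0.14. The counts became 5 and 10 after quantile normalization, and 6 and 12 with equal FPKM sums. Class A scavenger receptors rose. Msr1 was at 26.98, 31.6 and 27.7 FPKM in the untreated libraries and at 517, 533 and 504 FPKM after LPS (4.13 ± 0.07) and Marco was at 0.0148, 0.124 and 0.0634 FPKM in the untreated libraries and at 13.3, 12.6 and 12.3 FPKM after LPS (3.69 ± 0.07). Those that fell included Cd163, the haemoglobin receptor (2.62, 2.696 and 2.72 to 0.112, 0.0955 and 0.102 FPKM), Gas6, a bridge to dying cells (-1.28 ± 0.05), and Scarb1, the HDL receptor (-1.23 ± 0.05). Fc and complement genes rose in 9 of 20 tested, out of 25 listed, and 0 fell, with a median of 0.51 that became -0.30 with equal FPKM sums, where 6 rose and 1 fell. C3, the central complement component, was at 2.32, 3.01 and 3.11 FPKM in the untreated libraries and at 275, 276 and 269.8 FPKM after LPS (6.18 ± 0.07). Cfb, factor B of the alternative pathway, was at 0.0311, 0.242 and 0.107 FPKM in the untreated libraries and at 65.01, 64.3 and 63.3 FPKM after LPS (5.86 ± 0.06). Fcgr4, an activating IgG receptor, was at 21.2, 23.2 and 20.8 FPKM in the untreated libraries and at 253, 253 and 255 FPKM after LPS (3.49 ± 0.05).

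Purinergic, lipid and other G protein-coupled receptors rose and fell in similar numbers. Of 35 listed, 32 were tested, 12 rose and 11 fell, and the median of 0.35 became -0.19 after quantile normalization and -0.41 with equal FPKM sums. Adora2a, the adenosine receptor that dampens inflammation, was at 0.1098, 0.0719 and 0.0943 FPKM in the untreated libraries and at 82.3, 78.96 and 82.9 FPKM after LPS (6.24 ± 0.06). Hcar2, the receptor for niacin and ketone bodies, was at 0.815, 0.833 and 0.5702 FPKM in the untreated libraries and at 75.4, 69.7 and 68.1 FPKM after LPS (5.37 ± 0.06). The falls included receptors for lysophospholipids and cannabinoids. Gpr34, a lysophosphatidylserine receptor, was at 16.6, 17.7 and 16.1 FPKM in the untreated libraries and at 0.276, 0.314 and 0.168 FPKM after LPS (-3.83 ± 0.07). Lpar5, a lysophosphatidic acid receptor, was at 14.8, 13.2 and 14.3 FPKM in the untreated libraries and at 0.0356, 0.112 and 0.113 FPKM after LPS (-3.80 ± 0.07). Cnr2, the peripheral cannabinoid receptor, was at 10.9, 11.7 and 11.8 FPKM in the untreated libraries and at 0.0117, 0.0244 and 0.0391 FPKM after LPS (-3.60 ± 0.05).

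Transcription factors and receptors of the macrophage lineage also moved both ways. Of 38 listed, 37 were tested, 17 rose and 9 fell, with a median of 0.64. The counts became 12 and 10 after quantile normalization, and 11 and 12 with equal FPKM sums. Cebpa, a factor that commits cells to the myeloid line, was at 50.9, 50.7 and 51.9 FPKM in the untreated libraries and at 0.999, 1.02 and 1.09 FPKM after LPS (-4.68 ± 0.05). Spi1, which encodes the lineage factor PU.1, went the other way and was at 188, 187 and 188 FPKM in the untreated libraries and at 822, 771 and 810.4 FPKM after LPS (2.09 ± 0.06), or 0.91 after quantile normalization. Batf2, an interferon-inducible factor, was at 0.719, 1.05 and 1.25 FPKM in the untreated libraries and at 90.5, 84.5 and 90.6 FPKM after LPS (5.49 ± 0.08), and Tfec, a macrophage relative of Mitf, rose by 3.54 ± 0.06.

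Few lysosomal genes passed the test. All 39 listed were tested, 1 rose and 6 fell (20.7% and 15.1% of all genes), with a median of -0.25. In 29 of 39 all LPS libraries were below all untreated ones, and in 6 they were above. A lack of overlap was seen in 90.8% of all genes tested. The falls became 25 after quantile normalization and 23 with equal FPKM sums. Their share of all FPKM went from 6.14 to 6.34% to 3.00 to 3.09%, while the sum over all genes was larger after LPS. The summed FPKM of the list was 29658 to 30074 untreated and 25458 to 25848 after LPS. Tfeb, the factor that drives lysosomal genes, was at 30.1, 28.8 and 31.9 FPKM in the untreated libraries and at 2.56, 1.94 and 2.82 FPKM after LPS (-3.19 ± 0.09). Sgsh, an enzyme of heparan sulfate breakdown, was at 26.3, 25.1 and 28.5 FPKM in the untreated libraries and at 1.81, 1.53 and 1.89 FPKM after LPS (-3.33 ± 0.07), and Npc1, the lysosomal cholesterol exporter, also fell (-1.48 ± 0.06). Ctsc, the protease that activates serine proteases of immune cells, was the 1 that rose, at 70.6, 76.9 and 69.4 FPKM in the untreated libraries and at 509, 510.1 and 490.5 FPKM after LPS (2.78 ± 0.05). Of 16 V-ATPase subunits, which acidify the lysosome, 1 rose (Atp6v1e1, 1.81 ± 0.05, or 0.61 after quantile normalization) and 1 fell (Atp6v0d2, -1.16 ± 0.06). With quantile normalization 0 rose and 7 fell, and with equal FPKM sums 1 rose and 4 fell. The V-ATPase median of 0.35 became -0.88 after quantile normalization and -0.46 with equal FPKM sums.

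The prostaglandin and leukotriene pathway moved both ways. Of 16 listed, 12 were tested, 4 rose and 3 fell, with a median of -0.80, and 7 fell under both quantile normalization and equal FPKM sums. Ptgs2, the inducible cyclooxygenase COX-2, was at 0.0937, 0.1502 and 0.127 FPKM in the untreated libraries and at 884, 933 and 845 FPKM after LPS (9.63 ± 0.05). Ptges, the inducible prostaglandin E synthase, was at 0.352, 0.451 and 0.343 FPKM in the untreated libraries and at 68.1, 64.5 and 66.7 FPKM after LPS (5.61 ± 0.05). Ptges3, the constitutive cytosolic prostaglandin E synthase, rose by 1.46 ± 0.07, or 0.59 after quantile normalization and 0.67 with equal FPKM sums. Ptgs1, the constitutive cyclooxygenase, was at 13.1, 13.8 and 13.5 FPKM in the untreated libraries and at 4.901, 4.88 and 5.04 FPKM after LPS (-1.29 ± 0.07). Hpgd, which inactivates prostaglandins, was at 122, 115 and 107 FPKM in the untreated libraries and at 20.3, 20.00 and 18.6 FPKM after LPS (-2.49 ± 0.07).

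Iron genes showed the exporter among the largest falls of all. Of 20 listed, 19 were tested, 5 rose and 5 fell (20.7% and 15.1% of all genes), with a median of -0.31. The counts became 5 and 9 after quantile normalization, and 5 and 10 with equal FPKM sums. Slc40a1, ferroportin, the only known iron exporter, was at 74.6, 73.3 and 69.3 FPKM in the untreated libraries and at 2.53, 2.17 and 2.203 FPKM after LPS (-4.48 ± 0.05). Hmox1, which frees iron from haem, was at 120.2, 116 and 118 FPKM in the untreated libraries and at 55.9, 52.2 and 54.4 FPKM after LPS (-1.11 ± 0.05). Lcn2, which binds bacterial siderophores, was at 0.0402, 0.151 and 0.103 FPKM in the untreated libraries and at 70.3, 64.6 and 67.02 FPKM after LPS (5.96 ± 0.06), and Cp, the ferroxidase ceruloplasmin, was at 0.351, 0.374 and 0.543 FPKM in the untreated libraries and at 85.5, 85.6 and 79.9 FPKM after LPS (5.90 ± 0.06). Fth1, ferritin heavy chain, was at 17008, 16751 and 15930 FPKM in the untreated libraries and at 22385, 21224 and 21265 FPKM after LPS, a log2 difference of 0.38 that became -0.43 with equal FPKM sums.

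Antioxidant and stress genes rose in part. Of 24 NRF2 targets, antioxidants and metallothioneins, 11 rose and 0 fell, with a median of 0.58 that became -0.21 with 5 falling with equal FPKM sums, and 6 fell after quantile normalization. Sod2, mitochondrial superoxide dismutase and an NF-kB target, was at 12.6, 12.9 and 11.7 FPKM in the untreated libraries and at 559, 547 and 543 FPKM after LPS (5.37 ± 0.04). Mt2, a metallothionein that binds zinc, was at 17.3, 14.8 and 13.9 FPKM in the untreated libraries and at 549.8, 569 and 605 FPKM after LPS (5.14 ± 0.07). Prdx5, a peroxiredoxin, was at 191, 186 and 180.1 FPKM in the untreated libraries and at 2511, 2328 and 2412 FPKM after LPS (3.70 ± 0.05), and Slc7a11, the cystine transporter, rose by 2.47 ± 0.05. Of 28 genes of the unfolded protein and ATF4 responses, 26 were tested, 8 rose and 3 fell (20.7% and 15.1% of all genes). The median of 0.58 became -0.10 after quantile normalization, with counts of 4 and 3. With equal FPKM sums it became -0.18, with counts of 5 and 7. Ppp1r15a, which restores translation, rose by 3.23 ± 0.05, and Hspa5, the chaperone BiP, by 2.08 ± 0.05, or 0.96 after quantile normalization. Eif2ak3, the stress kinase PERK, was at 8.01, 8.47 and 8.96 FPKM in the untreated libraries and at 1.98, 1.81 and 2.01 FPKM after LPS and so fell (-1.69 ± 0.05).

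Inflammasome genes rose in 9 of 19 tested and 3 fell, with a median of 0.84, and with equal FPKM sums 8 rose and 5 fell. Nlrp3, the sensor whose priming depends on NF-kB, was at 12.5, 12.7 and 12.8 FPKM in the untreated libraries and at 258, 250 and 249 FPKM after LPS (4.21 ± 0.05). Casp4, the receptor of cytosolic LPS, was at 12.6, 12.8 and 12.4 FPKM in the untreated libraries and at 307, 307 and 303 FPKM after LPS (4.50 ± 0.06), and Casp1, which cuts IL-1 beta, rose by 3.29 ± 0.06. Txnip, a redox protein that also restrains glucose uptake, was at 338, 335 and 338 FPKM in the untreated libraries and at 48.3, 47.2 and 46.4 FPKM after LPS (-2.81 ± 0.04). Apoptosis and necroptosis genes rose in 18 of 30 tested, out of 32 listed, and 2 fell, with a median of 1.36. The counts became 13 and 4 after quantile normalization, and 13 and 5 with equal FPKM sums. Survival genes led the rises. Bcl2a1d, of the anti-apoptotic A1 family, was at 4.44, 4.79 and 4.24 FPKM in the untreated libraries and at 946, 984 and 920 FPKM after LPS (7.44 ± 0.08), and how reads were split between it and its near-identical copies is not given in the sources used here. Traf1, a survival adaptor, was at 1.28, 1.39 and 1.19 FPKM in the untreated libraries and at 274, 258 and 267 FPKM after LPS (6.87 ± 0.05). Cdkn1a, the cell cycle inhibitor p21, was at 51.1, 50.8 and 48.9 FPKM in the untreated libraries and at 3111, 2944 and 3017 FPKM after LPS (5.88 ± 0.05). Both that fell on the deposited scale promote death. Bmf, a BH3-only protein, was at 11.4, 11.01 and 11.7 FPKM in the untreated libraries and at 0.0675, 0.0705 and 0.0431 FPKM after LPS (-3.54 ± 0.05), and Casp9, the caspase of the apoptosome, was at 14.6, 15.1 and 14.8 FPKM in the untreated libraries and at 3.57, 3.03 and 3.84 FPKM after LPS (-1.82 ± 0.06).

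Matrix and cytoskeletal genes rose in many cases. Of 26 genes of metalloproteases, inhibitors and matrix, 22 were tested, 13 rose and 1 fell, with a median of 2.05. Mmp13, a collagenase, was at 0.992, 0.758 and 0.944 FPKM in the untreated libraries and at 1735, 1709.8 and 1616 FPKM after LPS (9.80 ± 0.07). Mmp14, a membrane-bound metalloprotease, was at 1.19, 1.802 and 1.54 FPKM in the untreated libraries and at 242, 236 and 248 FPKM after LPS (6.60 ± 0.07). Of 23 integrins and tetraspanins, 22 were tested, 8 rose and 4 fell (20.7% and 15.1% of all genes). Their median of 0.25 became -0.74 after quantile normalization, -0.56 with equal FPKM sums and -0.043 when only genes with 5 FPKM were kept. The counts became 7 and 10 after quantile normalization, and 6 and 8 with equal FPKM sums. Itga5, the fibronectin receptor chain, rose by 2.94 ± 0.05, and Itgb3, a chain of the vitronectin receptor, was at 11.7, 10.9 and 11.3 FPKM in the untreated libraries and at 2.02, 1.82 and 1.55 FPKM after LPS and so fell (-2.14 ± 0.07). Of 26 actin cytoskeleton genes, 14 rose and 0 fell, with a median of 1.10, or 7 and 2 after quantile normalization and 8 and 2 with equal FPKM sums. Actb, beta-actin, was at 1325, 1324 and 1322 FPKM in the untreated libraries and at 8338, 7865 and 7984 FPKM after LPS (2.61 ± 0.06). Fscn1, which bundles actin in cell protrusions, was at 0.6097, 0.5003 and 0.625 FPKM in the untreated libraries and at 86.6, 85.2 and 89.6 FPKM after LPS (5.80 ± 0.06), and Marcksl1, which links actin to the membrane, rose by 5.92 ± 0.07. Tmsb4x, which sequesters actin monomers, rose by 1.09 ± 0.07, but was 0.00 after quantile normalization and 0.28 with equal FPKM sums.

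Cell cycle genes moved in both directions. Of 38 DNA replication genes, 30 were tested, 4 rose and 7 fell (20.7% and 15.1% of all genes). The median was -0.54, or 0.0055 when only genes with 5 FPKM were kept. With equal FPKM sums 1 rose and 16 fell, and with a pseudocount of 0.1 there were 5 and 14. E2f2, a factor that drives S phase genes, was at 4.99, 4.62 and 4.84 FPKM in the untreated libraries and at 0.0943, 0.0295 and 0.0526 FPKM after LPS (-2.46 ± 0.06), and Mcm7, a subunit of the replicative helicase, was at 4.83, 4.45 and 4.67 FPKM in the untreated libraries and at 0.427, 0.467 and 0.693 FPKM after LPS (-1.89 ± 0.07). Ccne1, the G1/S cyclin, was at 0.871, 0.829 and 0.941 FPKM in the untreated libraries and at 9.44, 9.12 and 9.57 FPKM after LPS (2.46 ± 0.05), and Pcna, the replication clamp and the most abundant of the list, was at 113, 113 and 104 FPKM in the untreated libraries and at 311, 314 and 314 FPKM after LPS (1.50 ± 0.06), or 0.36 after quantile normalization and 0.70 with equal FPKM sums. Of 30 mitosis genes, 20 were tested, 2 rose and 6 fell, with a median of -0.56, or 0.82 when only genes with 5 FPKM were kept. The counts became 2 and 2 after quantile normalization, and 2 and 11 with equal FPKM sums. Kif23, a kinesin of cytokinesis, was at 7.02, 6.46 and 6.905 FPKM in the untreated libraries and at 0.119, 0.235 and 0.148 FPKM after LPS (-2.74 ± 0.06), and Aurkb, a mitotic kinase, was at 4.56, 4.12 and 3.71 FPKM in the untreated libraries and at 0.412, 0.431 and 0.432 FPKM after LPS (-1.84 ± 0.06). Mki67, the proliferation marker Ki-67, was at 3.15, 2.87 and 2.69 FPKM in the untreated libraries and at 27.97, 29.6 and 28.1 FPKM after LPS (2.92 ± 0.05), in the opposite direction to these.

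Pim1 (chr17:29490753-29496112, plus strand), the serine/threonine kinase gene whose deletion the other libraries of the series are labelled with, was at 24.96, 21.5 and 22.3 FPKM in the untreated libraries and at 665, 630.2 and 641 FPKM after LPS (4.76 ± 0.07). At the other extreme, 0 of 79 cytosolic ribosomal protein genes passed the test in either direction, with a median of 0.22 that became -0.75 after quantile normalization, where 14 fell, and -0.59 with equal FPKM sums. By level, 61 of the 79 had all LPS libraries above all untreated ones and 5 had them below, where 90.8% of all genes tested lacked overlap. Their share of all FPKM went from 14.3 to 14.95% to 9.62 to 9.89%, while their summed FPKM was 66734 to 73214 untreated and 81663 to 82865 after LPS. Of the 12 macrophage markers, all tested, 4 rose and 1 fell, with a median of 0.09 that became -0.43 after quantile normalization and -0.70 with equal FPKM sums.

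**Figure D4:**
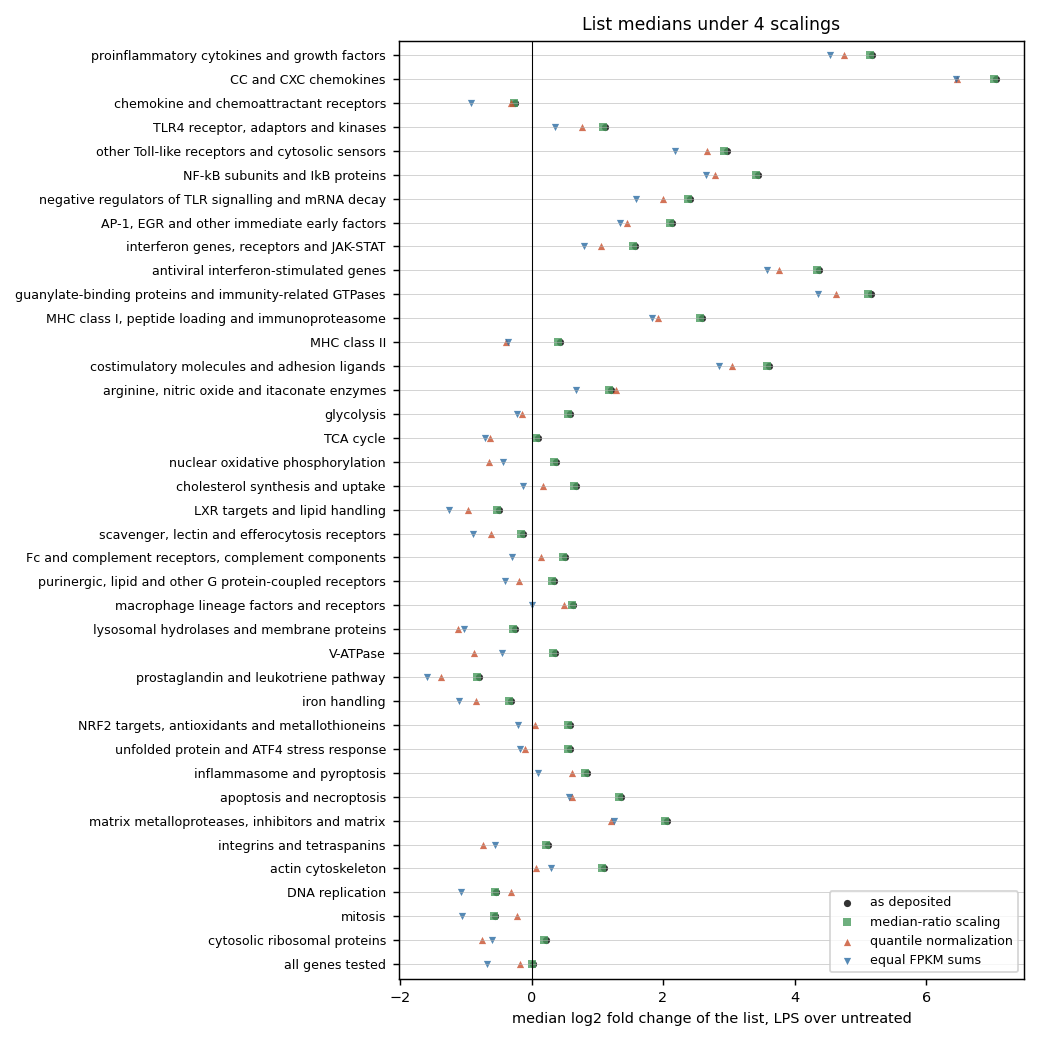
Median log2 fold change of LPS over untreated for 38 gene lists and for all genes tested under 4 scalings of the libraries. Medians of cytokines, chemokines, ISGs and guanylate-binding proteins stay above 3 under each, while those of MHC class II, glycolysis, the TCA cycle, oxidative phosphorylation, V-ATPase and ribosomal proteins are above 0 as deposited and below 0 under quantile normalization and equal FPKM sums.

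The ISRE core and the kB consensus of the promoters printed above were counted over 300 bases, from 250 before to 50 after each start, on both strands. The RefSeq table held 32851 promoters and matched 8352 of the 10266 genes, 7894 by symbol and 458 by synonym. A gene counted if any of its promoters held the motif, so genes with several promoters had more chances. An ISRE core stood in 3.44% of all promoters and in 4.18% of the genes matched. It was found in 8.22% of genes that rose, 2.15% of genes that fell and 3.36% of the rest. The share went up with the size of the rise, to 19.1% (26 of 136) at log2 fold changes of 4 to 6 and 33.3% (19 of 57) above 6. Among ISGs 43.1% (22 of 51) held a core, and among guanylate-binding proteins and immunity-related GTPases 90.9% (10 of 11).

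The kB consensus was less tied to the size of the rise. It stood in 4.51% of all promoters and in 6.27% of the genes matched. By call it was found in 8.86% of genes that rose, 6.05% of genes that fell and 5.50% of the rest. Above a log2 fold change of 6 it was found in 15.8% (9 of 57), with a Wilson 95% interval of 8.54 to 27.4%, against 22.5 to 46.3% for the ISRE core. Of the NF-kB family genes 75.0% (6 of 8) held it, and of the chemokine genes 33.3% (5 of 15). Neither pattern was near exclusive to genes that rose, since 11.9% (7 of 59) of ribosomal protein genes, none of which passed the test, held an ISRE core. These shares are descriptions without a test, and genes of 1 family share sequence.

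**Figure D5:**
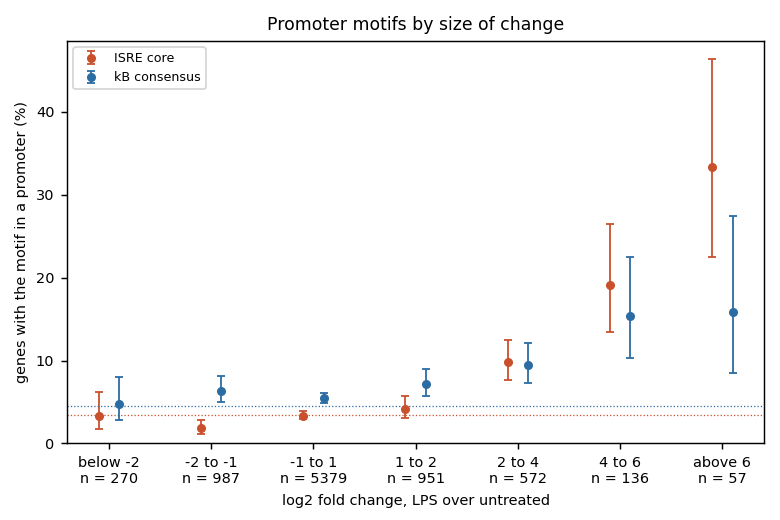
Share of genes with an ISRE core (red) or a kB consensus (blue) in a promoter, by log2 fold change of LPS over untreated, with Wilson 95% intervals as bars, the number of genes under each bin and the share of all promoters as dotted lines. The ISRE share climbs from 4.21% at 1 to 2 to 33.3% above 6, and neither motif exceeds 6.38% in the bins of genes that fell. Over all genes matched the shares are 4.18% (ISRE) and 6.27% (kB).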

How the data were processed

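The authors prepared libraries with the TruSeq Stranded mRNA kit and sequenced them on a NovaSeq system. The submitters' processing notes name bcl2fastq 2.20.0.422, cutadapt 1.18, TopHat2 2.0.13, Cuffdiff 2.2.1 and build mm10, whereas the methods name a rat genome. The deposited gene names are mouse symbols. The authors deposited 1 column of values per library, read here as FPKM because Cuffdiff gives FPKM, although the columns carry no unit. The annotation and the normalization between libraries were not given in the sources used here.

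Members and gene lists were chosen with earlier results of these data known. FPKM were taken without rescaling, and a gene was kept where 3 or more of the 6 WT libraries reached 1 FPKM. Then log2(FPKM + 1) was fitted with limma 3.58.1 in R 4.3.3 as 4 group means over 12 libraries with a mean-variance trend, and the WT LPS minus WT untreated contrast was called at more than 2-fold, p under 0.05 and FDR under 0.1. The fit was also run on simulated data, where all 200 genes changed 3-fold were recovered and 1 unchanged gene was called. Lists were described by counts and medians, without set tests.

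The naming rule took the 12 largest changes each way, the 6 largest gains and losses of mean FPKM, up to 4 called members each way and the most abundant member of each list, and genes of the study. It gave 253 genes, of which 168 are described by their change. These 168 leave out markers of other cell types that did not pass, genes at the edge of the filter and the genes past 2-fold that did not pass, which are named too. Some items are not reported here. Gene positions and transcript lengths came from GENCODE M21. Depth was estimated from values up to 0.2 FPKM in genes with 1 annotated transcript, of which 76.8 to 80.0% lay within 0.15 of a whole number of fragments, where even spacing would give 30%. Fragment totals used the longest transcript of each gene and are approximate. Motifs were counted in RefSeq promoters, and motifs other than the 2 reported were looked at and are not reported. Alternatives were a pseudocount of 0.1, other filters and thresholds, median-ratio, quantile and equal-sum scaling, the replicate block, a fit without trend and leaving out each library. Figures were drawn with matplotlib 3.10.9, and tables were handled with pandas 2.3.3 and numpy 2.4.6 in Python 3.11.15.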

Additional observations from a re-analysis of the deposited data

Results flagged for a closer look

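The response to LPS was also compared between genotypes with limma on log2(FPKM + 1) over the 12 libraries, as the response in the libraries labelled Pim1-/- minus that in WT. Of the 10266 genes, 640 passed more than 2-fold, p under 0.05 and FDR under 0.1, with 404 lower and 236 higher in the libraries labelled Pim1-/-. Among the 168 genes described by their change, 47 passed, with SE of 0.06 to 0.18 and adjusted p of 2.9e-05 or less. Those genes were picked largely by the size of their WT change, and the filter used WT libraries only. The same WT values enter the difference, so the choice of genes favours smaller responses in the libraries labelled Pim1-/-. The numbers in each direction below are therefore not a result about the genotypes. They are given as values, and their cause was not tested. FPKM sums were 713307 to 743912 in the LPS libraries labelled Pim1-/- against 837585 to 849323 in WT, and this scale enters each difference. Pim1 itself was still detected in the libraries labelled Pim1-/-, at 8.003 to 9.51 FPKM untreated and 205 to 236 FPKM after LPS.

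The rise was larger in the libraries labelled Pim1-/- for Cxcl10 (1.84), Ifit1 (1.71), Cxcl2 (1.70) and Rsad2 (1.34). All 4 started from lower untreated levels than in WT, for Cxcl10 0.329 to 0.349 FPKM against 4.35 to 5.103 FPKM, and for 3 of them the level after LPS was also lower than in WT, the exception being Cxcl2. After LPS, Cxcl10 was at 9737 to 10011 FPKM against 11379 to 11949 in WT, Ifit1 at 1703 to 2013 against 2252 to 2339.5 FPKM and Rsad2 at 3182 to 3472 against 4046 to 4307 FPKM. The rise was smaller by the largest amounts for Mki67 (-3.63), Mt2 (-3.04), Fscn1 (-2.88), Marco (-2.69), Msr1 (-2.66), Cp (-2.47), Ptges (-2.41), Ch25h (-2.29) and Ccne1 (-2.13). Smaller differences in that direction were those of Pfkfb3 (-2.05), Lcn2 (-2.0), Cycs (-1.63), Cfb (-1.60), Mmp14 (-1.54), Cdkn1a (-1.46), Lck (-1.41), Mmp13 (-1.40), Adora2a (-1.25) and Pdgfrb (-1.24). The rest were S100a9 (-1.18), Pcna (-1.17), Iigp1 (-1.10), Actb (-1.08), Fpr2 (-1.06), Ctsc (-1.06), Il27 (-1.06) and Sod2 (-1.05). Of these 27 genes, 26 had lower LPS levels than WT with no overlap, and the untreated level was higher than in WT in 9 and lower in 11. For Mki67 the WT response was 2.92 and the other -0.71, so the directions differed. The fall was smaller in the libraries labelled Pim1-/- for Gpr34 (2.62), Arhgap19 (2.13), Cxcr4 (1.87), Slc26a11 (1.82), Txnip (1.79), Bmf (1.70), Slc40a1 (1.61), Mknk2 (1.57), Tmem86a (1.57), Zfp36l1 (1.54), Zfp36l2 (1.53), Sesn1 (1.46), Lpar5 (1.04), Tfeb (1.04) and Cebpa (1.01). All 15 started from lower untreated levels than in WT, and after LPS 8 were higher and 2 lower than in WT. E2f2 fell further in those libraries (-1.02) from a higher start, at 11.5 to 12.6 FPKM untreated against 4.62 to 4.99 FPKM in WT. After LPS it was still above WT, at 0.117 to 0.216 against 0.0295 to 0.0943 FPKM, all close to 0.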

How the results depend on the processing

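The counts of 2127 genes higher and 1555 lower after LPS stayed within 1.5 times of these values under a pseudocount of 0.1, no filter, a filter of 5 FPKM, median-ratio scaling, quantile normalization, a fit of the WT libraries alone and limma without a trend. Leaving out 1 library at a time gave 2110 to 2145 higher and 1544 to 1560 lower. Other settings moved the counts further. Without the fold threshold at FDR under 0.05 there were 4711 higher and 4505 lower, at more than 4-fold there were 954 and 346, both by construction, and with libraries scaled to equal FPKM sums, an alternative chosen after the data were seen, there were 1192 and 3703. Genes higher made up 57.8% of calls as deposited, 47.4% after quantile normalization and 24.4% with equal FPKM sums. Calls as deposited took the opposite sign in 21 genes under quantile normalization and in 0 under the other settings. For the quantile values the cause was not tested.

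Of the 168 genes described by their change, 123 kept direction and call in every setting. Median-ratio scaling, the pseudocount of 0.1 and no filter changed none of the 168. Cd74 reversed after quantile normalization (-0.31), and Fth1 (-0.43) and Lyz2 (-0.79) with equal FPKM sums. List medians that reversed after quantile normalization were those of MHC class II (-0.39), glycolysis (-0.15), the TCA cycle (-0.64), oxidative phosphorylation (-0.65), G protein-coupled receptors (-0.19), V-ATPase (-0.88), the unfolded protein and ATF4 response (-0.10), integrins and tetraspanins (-0.74), ribosomal proteins (-0.75) and macrophage markers (-0.43). With equal FPKM sums they were those of MHC class II (-0.35), glycolysis (-0.22), the TCA cycle (-0.70), oxidative phosphorylation (-0.43), cholesterol (-0.12), Fc and complement genes (-0.30), G protein-coupled receptors (-0.41), V-ATPase (-0.46), NRF2 targets (-0.21), the unfolded protein and ATF4 response (-0.18), integrins and tetraspanins (-0.56), ribosomal proteins (-0.59) and macrophage markers (-0.70). With the filter of 5 FPKM, which tests fewer genes, they were those of chemoattractant receptors (0.37), integrins and tetraspanins (-0.043), DNA replication (0.0055) and mitosis (0.82).

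The WT groups share replicate numbers, but same-numbered libraries deviated from their group means with correlations of 0.27, -0.11 and 0.11 over 4178 genes, so the numbers were not taken to pair them. With a replicate block the counts were 2128 and 1555 in the 6 WT libraries and 2127 and 1555 in all 12, and no call on a named gene changed. FPKM holds no counts, so the estimated depth of 39500000 to 45700000 fragments rests on low values only, and levels under about 0.1 FPKM are a few fragments.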
